A study of Homo sapiens with 6 samples.

Results

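The kinesin genes are the motor protein genes whose symbols begin with KIF or KIFC, and 42 of the 20442 genes in the count table matched that naming rule. Kinesins hydrolyse ATP to move along microtubules. Some build and shorten the mitotic spindle, separate chromosomes and complete cell division, and are made mainly by dividing cells. Others carry mitochondria, endosomes, lysosomes and vesicles, most of them toward the cell periphery, and a further set works in cilia and flagella. By these textbook roles the 42 genes were divided into 15 mitotic kinesins, 16 transport kinesins, 7 kinesins of cilia and sperm flagella, and 4 others. The symbol rule leaves out CENPE, a kinetochore kinesin with another kind of name, which is described with the partner genes.

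RNA was sequenced from T24, an established human bladder cancer cell line with epithelial origin, after 24 h with a control siRNA (si-NC) or with an siRNA against KNSTRN (si-KNSTRN). KNSTRN encodes a kinetochore and spindle protein, also called kinastrin or SKAP, that works with astrin, the product of SPAG5, to keep chromosomes attached to spindle microtubules. Each group had 3 libraries. The series text calls these biological replicates, all come from 1 line, and no source used here gives the siRNA sequences or says how many were used. Library totals ran from 16386799 to 20596074 reads.

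KNSTRN itself had 38.3, 41.2 and 41.9 CPM (counts per 1000000 reads, scaled between libraries by the TMM method) in si-NC libraries 1 to 3 and 13.6, 13.6 and 12.2 CPM in si-KNSTRN libraries 1 to 3, a difference of -1.62 as log2 fold change (log2FC; SE 0.07, adjusted p = 1.7e-11). Here and below, fold changes and Benjamini-Hochberg adjusted p come from edgeR's two-sided quasi-likelihood test, fitted on all 12650 genes that passed a low-count filter, and a gene was called higher or lower at an adjusted p under 0.05. Of the 6 epithelial markers, the keratin genes KRT7, KRT8 and KRT18 were abundant, with KRT8 at 1080 ± 35.1 CPM (SD, n = 3) in si-NC and KRT7 called higher (log2FC 0.23), whereas KRT19 stayed between 0.59 and 1.43 CPM, EPCAM between 0.43 and 1.00 CPM, and CDH1, the gene of E-cadherin, had no read in any library. Summed leukocyte markers (6 genes) stayed between 0.93 and 1.45 CPM, with CD3E and MS4A1 at 0, and the 5 endothelial markers between 0.55 and 1.72 CPM. The 7 fibroblast markers summed to 14.5 to 16.3 CPM in si-NC and 10.9 to 12.7 CPM in si-KNSTRN, and both that were tested were lower, COL1A1 (log2FC -0.26) and PDGFRB (log2FC -1.88). Of the 8 luminal urothelial markers, UPK3A had no read, UPK2, UPK1B and KRT20 stayed under 0.15 CPM, and GATA3 and FOXA1, at most 1.87 and 8.78 CPM, were not called. UPK1A, at most 1.03 CPM, was lower (log2FC -2.20), and PPARG, which is not specific to urothelium, was higher (log2FC 0.64) and reached 47.9 CPM. The part of other cell types in the results was not tested.

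Most transport kinesins that changed were higher after KNSTRN knockdown, while mitotic kinesins changed little and in both directions. Of 14 transport kinesins tested, 7 were higher in si-KNSTRN cells and 3 lower, among them KIF21B (3.50-fold higher), KIF5B, KIF3B, KIF21A and KIF1C (1.28-fold to 1.33-fold higher) and KIF13A (28.5% lower). Of 14 mitotic kinesins tested, 3 were higher and 4 lower, all by less than 25%, and the most abundant of them, KIF11, was not called. Over all genes tested, 31.2% were higher and 31.3% lower, and the mitotic counts lay near those shares. KIF12, a kinesin outside both groups, had the largest fall of the family, 73.7%.

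Over the whole family, 34 members passed the low-count filter, and 11 were higher, 9 lower and 14 not called. Among all 12650 genes tested, 31.2% were higher and 31.3% lower, 62.5% in either direction, so that the family's 58.8% called lay near the background. Groups without overlap were common too. The si-KNSTRN libraries lay wholly above si-NC in 33.4% of all genes tested and wholly below in 33.9%, beside 11 and 12 of the 34 kinesins. A separation given below is therefore a description of the values and not unusual by itself. The median log2FC was -0.05 for the kinesins and -0.01 for all genes tested, and the median size of the change, in either direction, was 0.19 against 0.28. Mitotic members had a median log2FC of -0.07, with 21.4% of those tested higher and 28.6% lower. Transport members had a median log2FC of 0.13, with 50% of those tested higher and 21.4% lower. These medians and shares are descriptions, and the difference between the mitotic and transport members was not tested. They also depend on the grouping. KIF21A and KIF21B, the 2 kinesin-4 genes counted as transport, were both higher, and the shares without them were not computed. Of the 20 members called, 16 had the same call in each of 14 refits with other scalings, filters, tools, a replicate block or 1 library left out. The other 4 were KIF2C, KIF3C, KIF16B and KIF24, whose values are given below with the settings that changed them.

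The other 8 members did not pass the filter. KIF2B, a relative of the spindle depolymerases, KIF19, a kinesin of motile cilia, and KIF26A had no read in any library, where a count of 0 allows up to 3 reads, or 0.146 to 0.183 CPM, for counting error alone. KIF1A, the neuronal carrier of synaptic vesicle precursors, and KIF6 had 3 reads each over the 6 libraries, KIF25 had 11, the neuronal KIF5A 32 and KIF26B 34. At this depth no difference in them could be measured.

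Levels of different genes were compared as CPM per kb of exon. The exon lengths pool the exons of all transcripts of a gene in the basic annotation of GENCODE 29. The order depends on that choice. KIFC3 has 4.927 kb of pooled exon but 3427 bases in its principal transcript, and KIF22 has 2.795 kb and 2113 bases. With transcript lengths both would stand higher, and such an order was not made. On this scale the 5 most abundant members in si-NC were all mitotic. KIF11 stood at 77.3 ± 4.74 CPM per kb (SD, n = 3), followed by KIF2C at 63.0 ± 0.609, KIF20A at 61.1 ± 1.71, KIF22 at 52.2 ± 0.763 and KIFC1 at 49.3 ± 2.04, and the ranges of these neighbours over the 3 si-NC libraries did not overlap. KIF1C, at 42.5 ± 1.96 CPM per kb, was the most abundant transport kinesin by pooled exon length, and KIF5B stood at 26.3 ± 1.15. KIF4A, KIF20B, KIF23 and KIFC3 lay between 34.6 and 39.4 CPM per kb with overlapping ranges between neighbours. The pairs KIFC2 and KIF18B, KIF18A and KIF15, and KIF3B and KIF14 also overlapped, as did KIF7 with KIF21A, KIF13A with KIF1B and KIF3A with KIF24. Among the 32 members with at least 100 reads in all, the low end held KIF13B (1.86 CPM per kb), KIF12 (1.12), KIF9 (1.04), KIF27 (0.801) and KIF21B (0.225), where the ranges of KIF12 and KIF9 and of KIF9 and KIF27 overlapped. KIF17 (0.190) and KIF4B (0.159) had fewer reads and lay lower still.

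**Figure D1:**
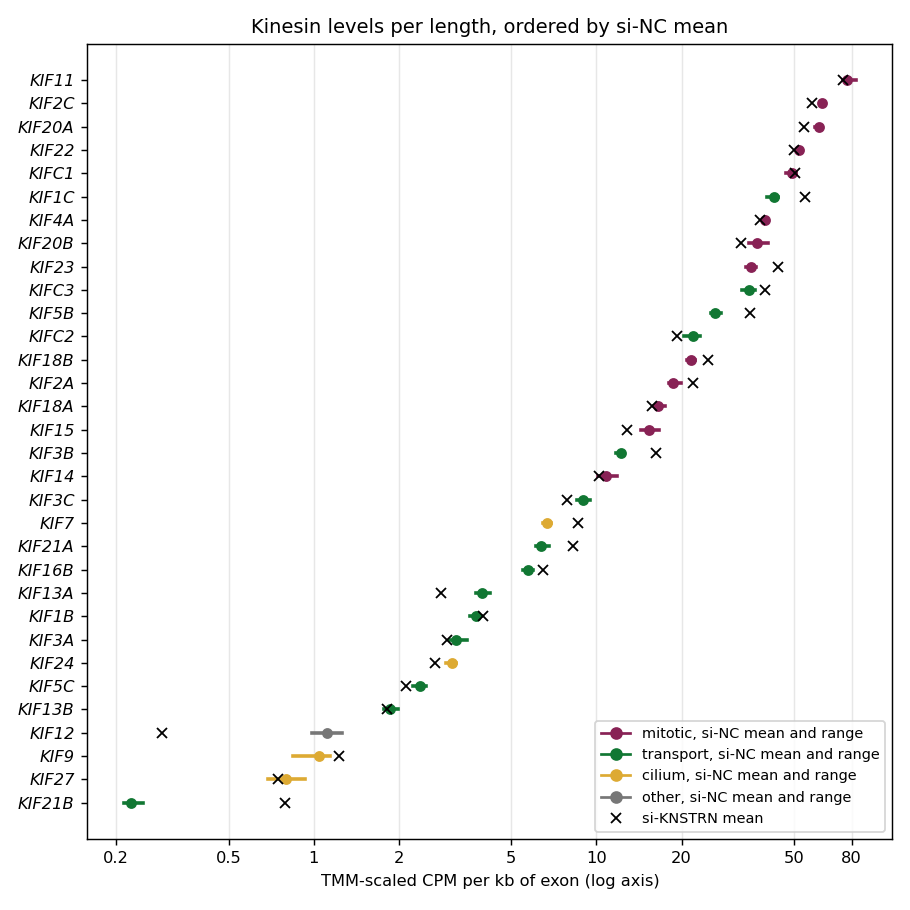
TMM-scaled CPM per kb of exon (log axis) for the 32 kinesin genes with at least 100 reads in all, ordered by their si-NC mean; dots are si-NC means, bars the range over 3 si-NC libraries and crosses si-KNSTRN means. The order starts with KIF11 at 77.3 and ends with KIF21B at 0.225 in si-NC, and the crosses of KIF12 and KIF21B lie farthest from their dots.

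KIF21B showed the largest rise of the family. The gene (chromosome 1, 200969390 to 201023714, GRCh38) encodes a kinesin-4 motor that walks to microtubule ends and limits their growth, known mainly from neurons and T cells. It had 2.12, 2.11 and 2.47 CPM in si-NC libraries 1 to 3 and 6.88, 7.98 and 8.72 CPM in si-KNSTRN libraries 1 to 3. The highest si-NC library was far below the lowest si-KNSTRN library, and the log2FC was 1.81 (SE 0.14, adjusted p = 1.8e-08), the 108th largest rise of the 12650 genes. The counts behind it were modest, 34 to 45 reads per si-NC library and 136 to 162 per si-KNSTRN library. Its relative KIF21A, mutated in congenital fibrosis of the eye muscles, lay between 40.5 and 45.2 CPM in si-NC and between 53.4 and 55.9 CPM in si-KNSTRN. The groups of KIF21A did not overlap either, with a log2FC of 0.37 (SE 0.06, adjusted p = 2.9e-05). On the scale per kb, KIF21B stayed below KIF21A in both groups, at 0.791 against 8.27 CPM per kb in si-KNSTRN.

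Conventional kinesin, kinesin-1, carries mitochondria, lysosomes and vesicles as a pair of heavy chains joined to a pair of light chains. KIF5B, its heavy chain gene in most tissues (chromosome 10, 32009015 to 32056425), had 153, 149 and 162 CPM in si-NC and 205, 199 and 212 CPM in si-KNSTRN libraries 1 to 3. All 3 si-KNSTRN libraries were above all 3 si-NC libraries, and KIF5B rose by a log2FC of 0.41 (SE 0.05, adjusted p = 1.4e-06). KIF5C, a heavy chain best known from neurons, did not pass the test, with 15.6 to 17.3 CPM in si-NC and 14.2 to 15.1 CPM in si-KNSTRN. Its log2FC was -0.17 (SE 0.08, adjusted p = 0.072), and it was called lower with upper-quartile scaling (adjusted p = 0.027) and without si-NC library 3 (adjusted p = 0.042), over a range of 0.027 to 0.21 in 14 refits.

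Kinesin-2 is a complex of KIF3A with KIF3B or KIF3C and the accessory subunit KIFAP3, and it moves vesicles in the cytoplasm and cargo along the cilium. Its subunits did not move together. KIF3B (chromosome 20, 32277651 to 32335011) had 71.6, 75.7 and 75.8 CPM in si-NC and 93.8, 98.2 and 104 CPM in si-KNSTRN libraries, with no overlap between groups and a log2FC of 0.41 (SE 0.05, adjusted p = 2.7e-06). KIF3A, the shared subunit, had 19.5, 19.6 and 22.4 CPM against 19.6, 19.9 and 17.2 CPM. The groups of KIF3A overlapped, and its log2FC of -0.11 (SE 0.08) was not called (adjusted p = 0.24). KIF3C lay between 47.7 and 53.1 CPM in si-NC and between 43.2 and 45.3 CPM in si-KNSTRN and fell by 0.18 on the log2 scale (SE 0.06, adjusted p = 0.011). Without si-NC library 2 the KIF3C call was lost, at a log2FC of -0.14 (adjusted p = 0.0695, the highest over 14 refits, from a lowest of 0.0027). KIFAP3 had 37.1 ± 2.35 CPM in si-NC and 34.4 ± 1.53 CPM in si-KNSTRN (SD, n = 3), and was not called (log2FC -0.11, adjusted p = 0.16).

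Kinesin-3 motors are fast carriers of vesicles and endosomes. KIF1C (chromosome 17, 4997950 to 5028401), which moves dense-core vesicles and integrin carriers, had 349, 341 and 319 CPM in si-NC and 408, 420 and 467 CPM in si-KNSTRN libraries 1 to 3. Its groups did not overlap, and it rose by a log2FC of 0.36 (SE 0.05, adjusted p = 2.5e-05). KIF1B, a carrier of mitochondria and synaptic vesicle precursors, stood at 58.5, 61.5 and 64.2 CPM against 62.6, 67.5 and 65.4 CPM, overlapping and not called (log2FC 0.09, SE 0.05, adjusted p = 0.15).

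KIF13A and KIF16B, both motors of endosomes, went in opposite directions. KIF13A (chromosome 6, 17759126 to 17987635), which moves recycling endosomes and the mannose 6-phosphate receptor, had 33.2, 34.5 and 37.0 CPM in si-NC and 24.3, 24.6 and 26.0 CPM in si-KNSTRN libraries. Every si-KNSTRN library was below every si-NC library, and KIF13A fell by 0.48 on the log2 scale (SE 0.07, adjusted p = 9.1e-06). KIF16B, which places early endosomes, had a log2FC of 0.17 (SE 0.06, adjusted p = 0.026) with 35.9 ± 1.54 CPM in si-NC and 40.3 ± 1.94 CPM in si-KNSTRN (SD, n = 3). That call was lost with upper-quartile scaling (adjusted p = 0.081), and when si-KNSTRN library 3 (adjusted p = 0.096), si-NC library 1 (0.12) or si-NC library 2 (0.057) was left out, over a range of 0.011 to 0.12 in 14 refits. KIF13B, a motor of polarity proteins, was not called (log2FC -0.03, SE 0.08).

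The kinesin-14 genes of the transport group, whose motors walk toward the minus end, were divided. KIFC3, which works at adherens junctions and the Golgi, had 179, 170 and 161 CPM in si-NC and 189, 194 and 201 CPM in si-KNSTRN, a rise of 0.19 on the log2 scale (SE 0.05, adjusted p = 0.0024). KIFC2, known from neurons, had 80.3 ± 5.11 CPM in si-NC and 70.4 ± 0.486 CPM in si-KNSTRN (SD, n = 3) and fell by 0.19 (SE 0.05, adjusted p = 0.0040). The groups of both genes were separate. KIFC2 shares 791 bases of exon with FOXH1, and reads there cannot be assigned without strand information, but FOXH1 had 51 reads over the 6 libraries against 8358 for KIFC2.

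The letters TGAGTA were searched in the 3' untranslated region (UTR) of 1 transcript per kinesin gene, because they were already known to be more frequent in genes called lower in these libraries. Among 11952 tested genes whose 3' UTR reached 50 bases, 3264 (27.3%) held them, with 728 higher and 1338 lower, and of the 8688 genes without them 3035 were higher and 2429 lower. Of the 34 tested kinesins, 5 held them, all transport kinesins, with KIF1C higher, KIF3C lower and KIF1B, KIF3A and KIF5C not called. None of the 14 mitotic kinesins tested held the letters, nor did KIF13A or KIF12. Of the 9 kinesins called lower, KIF3C alone therefore carried them. The KIF3C site is shown as that of the 1 gene called lower, with capitals marking TGAGTA after 12 bases in lower case (GENCODE 29 transcript, 5′ to 3′):
KIF3C site: acaataaaggaaTGAGTAtcgtcacggagt

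**Figure D2:**
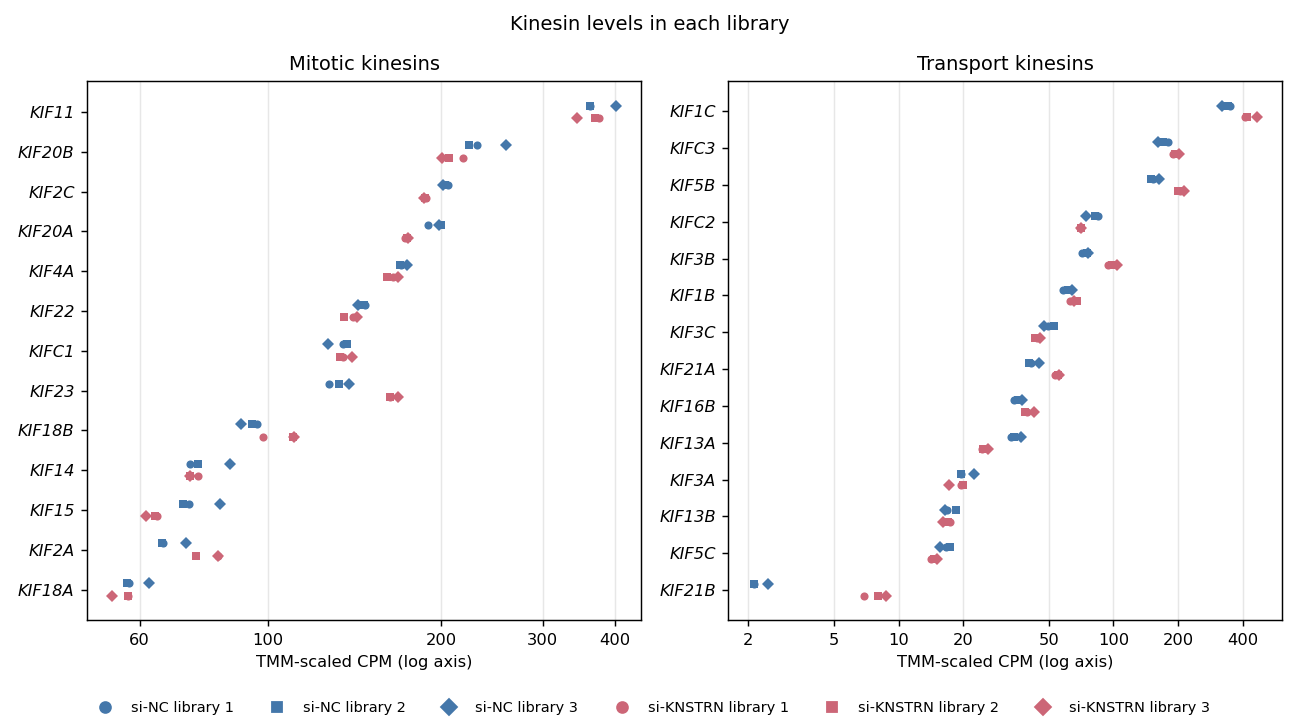
TMM-scaled CPM (log axis) in each of the 6 libraries for 13 mitotic kinesins (KIF4B, under 1 CPM, is not drawn) and 14 transport kinesins, with si-NC in blue above and si-KNSTRN in red below, and the marker shape giving the library number. KIF21B lies between 2.11 and 2.47 in si-NC and between 6.88 and 8.72 in si-KNSTRN. The mitotic genes drawn run from 53.8 (KIF18A) to 402 (KIF11), and the 2 groups of each lie closer than those of KIF21B. The groups of KIF23 are nevertheless apart (128 to 138 in si-NC, 163 to 169 in si-KNSTRN). The highest value is that of si-NC library 3 (diamond) for KIF11, KIF20B, KIF4A, KIF14, KIF15 and KIF18A.

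Among mitotic kinesins, the motors that build the spindle changed little. KIF11, also called Eg5, crosslinks and slides apart microtubules to separate the spindle poles. It had 363, 362 and 402 CPM in si-NC and 376, 370 and 344 CPM in si-KNSTRN libraries 1 to 3, overlapping groups and a log2FC of -0.05 (SE 0.05, adjusted p = 0.44). KIFC1, a minus-end motor that gathers spindle poles and extra centrosomes, had 135, 138 and 127 CPM against 135, 133 and 140 CPM and was not called (log2FC 0.03, SE 0.05, adjusted p = 0.58). KIF15, which helps KIF11 to hold the spindle open, had 73.1, 71.3 and 82.6 CPM in si-NC and 64.4, 63.9 and 61.5 CPM in si-KNSTRN. Its groups were separate, and it fell by 0.26 on the log2 scale (SE 0.06, adjusted p = 0.00074), the largest fall called among mitotic kinesins. In bulk RNA, fewer cells in G2 and mitosis and less RNA per such cell cannot be told apart.

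The kinesins that shorten or steady microtubule ends changed in both directions. KIF2A, a depolymerase of spindle poles that also trims microtubules outside mitosis, had 65.9, 65.6 and 72.3 CPM in si-NC and 81.9, 75.0 and 82.0 CPM in si-KNSTRN. The lowest si-KNSTRN value lay above the highest si-NC value, and KIF2A rose by a log2FC of 0.23 (SE 0.05, adjusted p = 0.0014). KIF18B, which trims astral microtubules, had 93.4 ± 2.98 CPM in si-NC and 107 ± 7.27 CPM in si-KNSTRN (SD, n = 3) and rose by 0.19 (SE 0.05, adjusted p = 0.0052).

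KIF2C, the depolymerase MCAK that corrects faulty kinetochore attachments, had 206, 203 and 202 CPM in si-NC and 188, 188 and 187 CPM in si-KNSTRN. The 2 groups were tight and separate, but the fitted ratio of si-KNSTRN to si-NC was 0.921 (log2FC -0.12, SE 0.04, adjusted p = 0.020). The KIF2C call was lost with library size as the only scaling (log2FC -0.08, adjusted p = 0.10) and when si-KNSTRN library 2 (adjusted p = 0.071), si-NC library 1 (0.065) or si-NC library 2 (0.051) was left out, over a range of 0.0033 to 0.10 in 14 refits. KIF18A, which damps chromosome movements at the metaphase plate, had 57.6, 57.1 and 62.4 CPM against 57.2, 57.4 and 53.8 CPM and was not called (log2FC -0.07, SE 0.05).

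The chromokinesins, which bind chromosome arms, were not called. KIF22, which pushes arms away from the poles, had 147, 147 and 144 CPM in si-NC and 141, 135 and 143 CPM in si-KNSTRN, with separate groups but a log2FC of -0.06 (SE 0.04, adjusted p = 0.22). It was called lower with upper-quartile scaling (log2FC -0.11, adjusted p = 0.043), over a range of 0.043 to 0.63 in 14 refits. KIF4A, which also sets the length of midzone microtubules, had 170, 170 and 174 CPM against 165, 161 and 168 CPM (log2FC -0.06, SE 0.04, adjusted p = 0.26). KIF4B, an intronless copy of KIF4A, had 62 reads over the 6 libraries and a log2FC of -0.61 (SE 0.40, adjusted p = 0.19). Of the 50-base windows in the KIF4B transcript, 14% occur without a mismatch in other genes, chiefly KIF4A, so its few reads are uncertain.

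The kinesins of the midzone and of cytokinesis included the clearest mitotic rise and a pair of falls. KIF23, which forms the centralspindlin complex with RACGAP1 (chromosome 15, 69414349 to 69448427), had 128, 133 and 138 CPM in si-NC and 163, 163 and 169 CPM in si-KNSTRN libraries 1 to 3. The groups were well separated, and KIF23 rose by a log2FC of 0.31 (SE 0.05, adjusted p = 1.8e-05). Its partner RACGAP1, chosen after its value was seen, fell from 187 ± 0.588 to 153 ± 3.16 CPM (SD, n = 3, log2FC -0.29, SE 0.04, adjusted p = 1.8e-05). KIF20A, which brings the Aurora B complex to the midzone, had 189, 200 and 198 CPM in si-NC and 173, 174 and 175 CPM in si-KNSTRN and fell by 0.17 (SE 0.04, adjusted p = 0.0030). KIF20B fell by 0.19 (SE 0.06, adjusted p = 0.0072), from 238 ± 19.0 to 209 ± 8.69 CPM. KIF14, which places citron kinase at the midbody, was not called (log2FC -0.08, SE 0.06), with 78.5 ± 6.84 and 74.1 ± 1.30 CPM.

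In KIF11, KIF14, KIF15, KIF18A, KIF20B and KIF4A, si-NC library 3 gave the highest value of the 6 libraries. The summed level of the mitotic members was 1936, 1940 and 2039 CPM in si-NC libraries 1 to 3 and 1937, 1912 and 1909 CPM in si-KNSTRN libraries 1 to 3, so that si-NC libraries 1 and 2 lay beside the si-KNSTRN ones. Without si-NC library 3 the log2FC of KIF11 was 0.00 (adjusted p = 0.96), against a range of 0.15 to 0.96 over 14 refits, and the calls of KIF15, KIF20A and KIF20B held. The transport members summed to 1109, 1102 and 1081 CPM in si-NC and 1248, 1272 and 1348 CPM in si-KNSTRN, with no overlap. KIF1C and KIF5B are large parts of that sum. Between pairs of replicates, si-KNSTRN library 3 differed most, with chi-squares per degree of freedom of 10.7 and 7.25. Those of si-NC library 3 were 4.49 and 4.16. Without si-KNSTRN library 3, 18 of the 20 called kinesins kept their call.

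Promoters of many mitotic genes carry a CHR element, of which TTTGAA is a common core and through which the MuvB complex acts with MYBL2 and FOXM1 or with repressors, and CCAAT boxes bound by NF-Y. Both were searched on both strands in the RefSeq window of 250 bases before and 50 bases from the start site (GRCh38.p14), which was found for 34 of the 42 members. TTTGAA occurred in 10 of the 15 mitotic kinesins, in 1 of 11 transport kinesins with a window (KIF5B), and in 15.2% of all 35116 windows and 13.6% of tested genes. CCAAT occurred in 11 of 15 mitotic and 4 of 11 transport kinesins, in 34.6% of all windows and in 43.3% of tested genes. Both together were found in 9 mitotic kinesins, in 5.90% of all windows and in 5.58% of tested genes. Each of these mitotic counts includes both KIF4A and its copy KIF4B, whose sequences around the letters are nearly the same. The windows that held TTTGAA did not go with 1 direction of change: of the 10 mitotic genes, KIF23 and KIF18B were higher, KIF15 and KIF20B lower and 6 not called.

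The promoters of the 4 called mitotic kinesins with TTTGAA are shown from 140 bases before the start site to the end of the window. They are written in the gene's own direction 5′ to 3′, with capitals marking TTTGAA and CCAAT or their reverse complements. KIF5B, a transport kinesin called higher, also holds TTTGAA, at -140, and CCAAT on the other strand at -59, and is not shown. KIF23 and KIF18B, which rose, come first, then KIF15 and KIF20B, which fell:
KIF23 promoter, chr15:69414209-69414398, plus strand: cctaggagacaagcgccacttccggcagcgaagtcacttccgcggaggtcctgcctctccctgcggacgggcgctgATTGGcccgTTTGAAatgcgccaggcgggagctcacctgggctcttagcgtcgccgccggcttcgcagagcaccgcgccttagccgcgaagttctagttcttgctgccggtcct
KIF18B promoter, chr17:44947724-44947913, minus strand: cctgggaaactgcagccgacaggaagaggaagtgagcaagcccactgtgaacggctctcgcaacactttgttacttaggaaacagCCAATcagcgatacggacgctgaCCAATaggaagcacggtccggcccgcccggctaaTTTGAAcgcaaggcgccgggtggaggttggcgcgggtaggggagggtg
KIF15 promoter, chr3:44761654-44761843, plus strand: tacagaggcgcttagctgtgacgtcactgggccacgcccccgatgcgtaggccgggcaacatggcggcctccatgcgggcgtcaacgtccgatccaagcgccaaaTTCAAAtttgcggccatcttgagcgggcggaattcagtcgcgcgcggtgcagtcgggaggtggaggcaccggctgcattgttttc
KIF20B promoter, chr10:89701450-89701639, plus strand: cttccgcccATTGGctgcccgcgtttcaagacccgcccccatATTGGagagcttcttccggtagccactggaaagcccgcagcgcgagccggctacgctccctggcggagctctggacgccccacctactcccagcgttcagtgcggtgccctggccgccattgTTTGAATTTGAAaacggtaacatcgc
In KIF23 the letters begin at position -55 from the start site (position 0) with CCAAT on the other strand at -64, and in KIF18B at 2 with CCAAT at -55 and -32. In KIF15 they lie on the other strand at -35 with no CCAAT in the window. KIF20B holds TTTGAA end to end at 24 and 30 and CCAAT on the other strand at -131 and -98. A match is a description of these letters, not of a bound site.

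**Figure D3:**
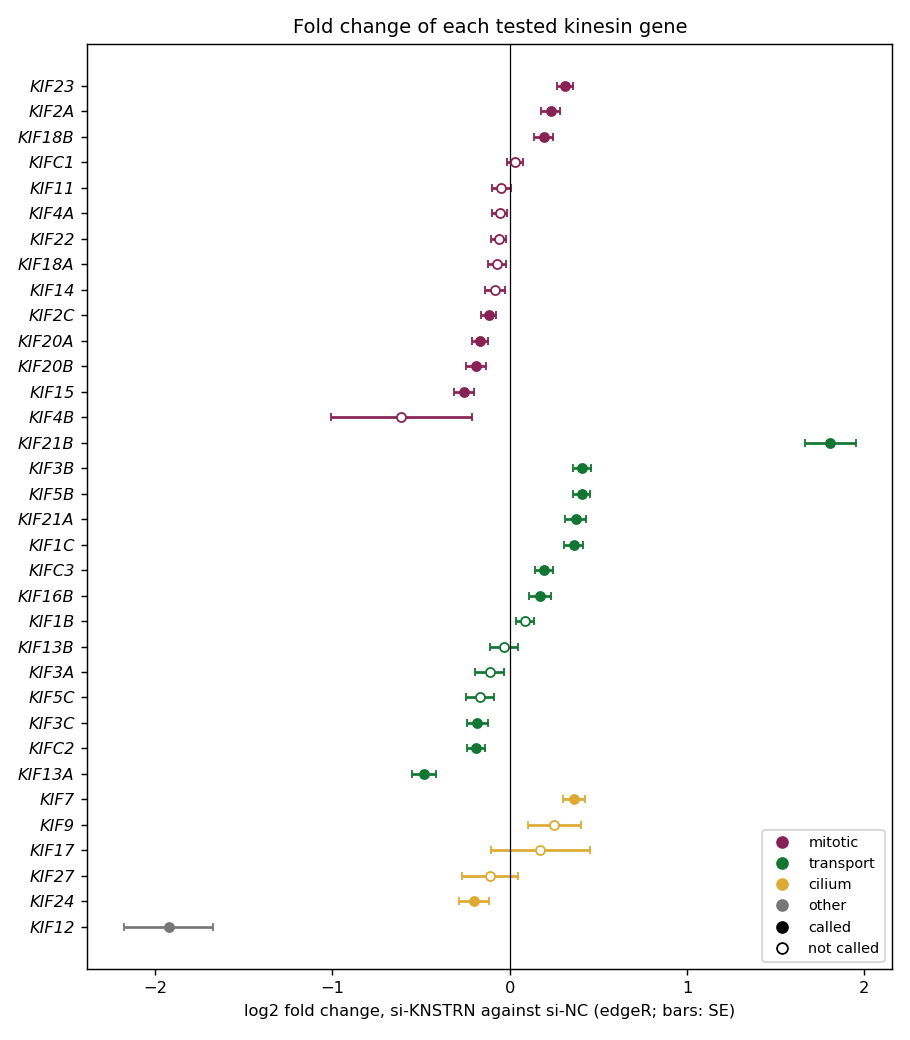
Log2FC of si-KNSTRN against si-NC (edgeR; bars are SE) for the 34 tested kinesin genes, by group, with filled points for genes called at an adjusted p under 0.05. Mitotic genes with a call lie between -0.26 and 0.31, transport genes with a call between -0.48 and 1.81, and KIF12 stands at -1.92.

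Cilium and flagellum kinesins were mostly scarce. KIF7, a regulator of Hedgehog signalling at the ciliary tip, lay between 29.5 and 31.5 CPM in si-NC and between 37.4 and 40.3 CPM in si-KNSTRN, with separate groups and a log2FC of 0.36 (SE 0.06, adjusted p = 8.2e-05). KIF24, which restrains cilium growth at the mother centriole, had 18.9 ± 0.845 CPM in si-NC and 16.5 ± 1.59 CPM in si-KNSTRN (SD, n = 3), and its log2FC of -0.20 (SE 0.08) passed narrowly (adjusted p = 0.044). The KIF24 call was lost with library size as the only scaling (adjusted p = 0.089), with DESeq2 (0.098), with a replicate block (0.055), and when si-KNSTRN library 3 (0.22), si-NC library 1 (0.125) or si-NC library 3 (0.095) was left out, over a range of 0.019 to 0.22 in 14 refits. KIF9, KIF17 and KIF27 were not called, at log2FCs of 0.25 (SE 0.15), 0.17 (SE 0.28) and -0.11 (SE 0.16). KIF9 reached the threshold only without si-KNSTRN library 3, at a log2FC of 0.35 (adjusted p = 0.050, over a range of 0.050 to 0.56 in 14 refits). In KIF27, 35.3% of the 50-base windows recur in other genes, and its reads are uncertain.

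KIF12, a kinesin of kidney and bile duct epithelium (chromosome 9, 114091638 to 114099292), had 2.81, 2.49 and 2.20 CPM in si-NC and 0.91, 0.44 and 0.59 CPM in si-KNSTRN libraries 1 to 3. Its groups did not overlap, and the log2FC was -1.92 (SE 0.25, adjusted p = 5.2e-06), the 39th largest fall of all genes tested. The counts were low, 40 to 57 reads per si-NC library and 8 to 18 per si-KNSTRN library. KIF12 and KIF21B, with 174 and 564 reads in all, were thus both the most changed members and among the scarcest that were tested.

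Partner genes of the motors were taken from 4 lists. These were chosen with earlier results of these data known, so their counts and shares are descriptions only. Of 34 tested genes of kinesin light chains and cargo adaptors, 12 were higher (35.3%) and 7 lower (20.6%), beside 31.2% and 31.3% of all genes tested, with a median log2FC of -0.07. The lower count was 4 with DESeq2, with library size as the only scaling, with a replicate block or without si-NC library 2, and 3 without si-KNSTRN library 2. The light chain genes KLC2 and KLC1 rose with KIF5B. KLC2 went from 58.9, 58.5 and 55.8 CPM in si-NC to 84.9, 87.9 and 97.0 CPM in si-KNSTRN (log2FC 0.64, SE 0.05, adjusted p = 4.1e-08), and KLC1 from 167 ± 2.15 to 233 ± 5.74 CPM (SD, n = 3, log2FC 0.48). KLC3 and KLC4, chosen after their values were seen, had log2FCs of 0.33 and -0.42 (adjusted p = 0.00010 and 0.00021), so that the 4 light chain genes did not move in 1 direction.

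Adaptors of lysosomes moved in both directions. SPAG9, which encodes the adaptor JIP4 of lysosomes and endosomes, rose by a log2FC of 0.36 (SE 0.04, adjusted p = 2.1e-06), from 156 ± 4.08 to 200 ± 3.23 CPM (SD, n = 3). BORCS7, a subunit gene of the BORC complex of lysosomes, was chosen after its value was seen and fell by 0.66 (SE 0.11, adjusted p = 7.3e-05). The other listed BORC subunit genes did not follow it as a set. KXD1 was called higher (log2FC 0.13, adjusted p = 0.016) and BLOC1S2 lower (log2FC -0.16, adjusted p = 0.028). BLOC1S1, SNAPIN, BORCS5, BORCS6 and BORCS8 were not called.

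Dynein, the motor that carries the same cargo toward the minus end, had 11 of 30 genes higher (36.7%) and 6 lower, beside 31.2% and 31.3% of all genes, with a median log2FC of 0.03. DYNC1LI2 and BICD2, a light intermediate chain and an adaptor, fell by 0.62 and 0.74 on the log2 scale (adjusted p = 1.5e-08 and 7.0e-08), and the light chain gene DYNLT1 fell by 0.50. The other light intermediate chain gene, DYNC1LI1, was named after its value was seen and rose by 0.31 (SE 0.05, adjusted p = 3.5e-05). ACTR1A, the actin-related filament of dynactin, rose by a log2FC of 0.36 (adjusted p = 2.5e-06).

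Spindle, midzone and mitotic kinase genes gave 24 of 33 lower (72.7%) and 2 higher (6.06%), beside 31.3% and 31.2% of all genes, and a median log2FC of -0.23. The mitotic kinesins had 4 of 14 lower and 3 higher, and the difference between these lists was not tested. KNSTRN, the siRNA target, is 1 of the 24. TOP2A, ASPM and NUMA1 fell by 0.84, 0.71 and 0.53 (adjusted p = 3.5e-09, 3.9e-08 and 2.7e-08), and SPAG5, the partner of KNSTRN, by 0.31 (SE 0.05, adjusted p = 5.1e-05). The 2 that rose, CCNB1 and PLK1, were named after their values were seen and had log2FCs of 0.34 and 0.29. The kinetochore kinesin CENPE had 138, 134 and 152 CPM in si-NC and 145, 143 and 131 CPM in si-KNSTRN and was not called (log2FC -0.02, SE 0.05, adjusted p = 0.75). The proliferation marker MKI67 was not called either, at 461 ± 28.8 and 461 ± 3.67 CPM (SE of the log2FC 0.05, adjusted p = 0.99).

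Of 21 regulators of G2/M transcription, 8 were higher and 5 lower, and the 61.9% called in either direction lay beside 62.5% of all genes, with a median log2FC of 0.05. FOXM1 and MYBL2, activators of mitotic genes, rose by log2FCs of 0.30 (SE 0.04, adjusted p = 1.2e-05) and 0.25 (SE 0.05, adjusted p = 0.00022). FOXM1 had 188, 187 and 187 CPM in si-NC and 225, 232 and 235 CPM in si-KNSTRN libraries. TFDP1, a partner of E2F factors, rose by 0.58, RBBP4, a subunit of MuvB, fell by 0.46, and CDKN1A, which encodes the kinase inhibitor p21, went from 14.2 ± 1.23 to 73.5 ± 10.7 CPM (SD, n = 3, log2FC 2.36, adjusted p = 7.9e-12).

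**Figure D4:**
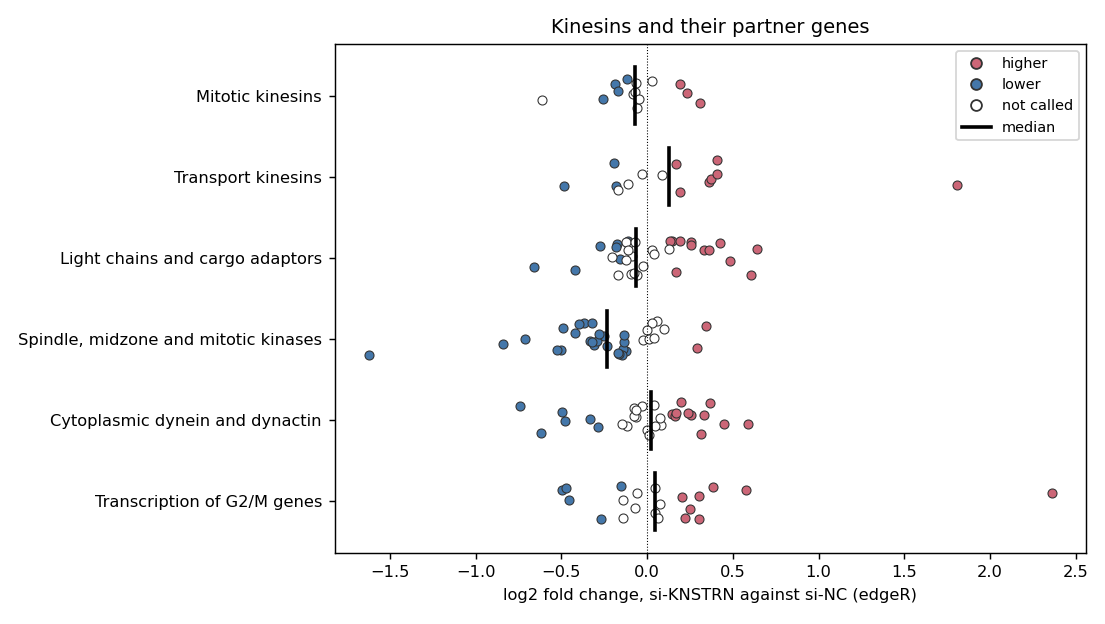
Log2FC of si-KNSTRN against si-NC (edgeR) for tested mitotic kinesins, transport kinesins and the 4 partner lists, 1 point per gene, red for higher, blue for lower and white for not called, with a bar at each median. The medians run from -0.23 for spindle, midzone and mitotic kinase genes to 0.13 for transport kinesins.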

How the data were processed

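Total RNA of 6 cultures of T24 cells was sequenced, 3 per group, with groups and replicate numbers taken from the sample titles. The authors deposited raw counts of reads per gene, with a column for each library. The submitters' processing notes name GRCh38, featureCounts, HISAT2 2.0.1, fastp 0.20.0 and FastQC 0.11.5. No source used here gives the strand setting, the treatment of multi-mapping reads or the annotation release. Exon lengths and 3' UTRs came from GENCODE 29 and promoter windows from RefSeq (GRCh38.p14).

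Members and gene lists were chosen with earlier results of these data known. Counts were tested with edgeR 4.0.16 (R 4.3.3) after filterByExpr (minimum count 10; 12650 genes kept), with TMM scaling and a group term only. Per-library values are given for called members with an absolute log2FC of at least 0.4 and for 16 listed members. From each partner list the 4 smallest p, and 10 listed genes, were named, apart from 2 genes that are not reported here. Alternatives used DESeq2 1.42.0, limma 3.58.1 (voom), other scalings and filters, a replicate block and each library left out. P-values set the difference between the groups against the spread among the 3 libraries within each group. They do not cover spread between cell lines or between siRNAs. In counts simulated at the depth of these libraries (12559 genes tested), 50% of 50 genes changed 1.25-fold and 86% of 50 changed 1.5-fold were recovered. There were 6 false calls among 12362 unchanged genes. The simulation left nearly all genes unchanged and gave every gene the same dispersion, whereas 62.5% of genes were called in the data. Its recovery and false calls therefore check the code and do not measure those of the real comparison. Floors cover counting error only. A planned comparison of protein sequences was not run. Summaries were made in Python 3.11.15 with pandas 2.3.3.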

Additional observations from a re-analysis of the deposited data

How the results depend on the processing

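Of the 20 kinesin genes called, 16 kept their call and direction in all 14 refits, and at an adjusted p under 0.01 the same number, 16, were called; KIF2C, KIF3C, KIF16B and KIF24 were lost in at least 1 refit. Over the refits that leave out 1 library, 10 to 11 kinesins were higher and 7 to 9 lower. Counts of higher and lower calls for the family, the mitotic and the transport kinesins stayed within 1.5 times the values given in every setting tried, as they did with KIF2A left out of the mitotic list or the cilium genes added to the transport list. The replicate block gave 11 higher and 8 lower kinesins. Same-numbered libraries did not deviate together (correlations of -0.06, 0.05 and -0.03, against -0.0621 to 0.0981 for libraries with different numbers). With 3 libraries per group, these values show no pairing by number but cannot exclude it. For light chains and cargo adaptors, 7 were lower in the report, against 4 with library size alone, 4 with DESeq2, 4 with the replicate block, 4 at an adjusted p under 0.01, and 3 to 8 with 1 library left out; the cause was not tested. Genes near no change switched the sign of their log2FC without a call. KIF11 ran from -0.075 to 0.0028 with 1 library left out, positive only without si-NC replicate 3. KIFC1 ran from -0.00377 (without si-NC replicate 3) to 0.053 and was -0.013 with upper-quartile scaling. KIF13B ran from -0.064 to 0.014 and was 0.0039 with library size alone, KIF27 ran from -0.23 to 0.013, and CENPE ran from -0.0581 to 0.032 and was 0.014 with library size alone. MKI67 ran from -0.0416 to 0.048 with 1 library left out, and was 0.00347 with DESeq2-type factors, 0.036 with library size alone, 0.00351 with DESeq2, 0.0012 with limma-voom, 0.0021 with no filter and 0.0011 with the replicate block. Depth limits KIF12, KIF21B, KIF9, KIF17, KIF27 and KIF4B, and the 8 members not tested.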
